A study of Mus musculus with 8 samples.

Results

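The transcripts of 10 genes that move mast cell granules to the plasma membrane and fuse them with it were followed in bone marrow–derived mast cells (BMMCs). They were picked by symbol, with earlier results of these data known: *Vamp2*, *Vamp7*, *Vamp8*, *Snap23*, *Stx3*, *Stx4*, *Stxbp2*, *Unc13d*, *Rab27a* and *Rab27b*. Of these 10, 9 were analysed here, out of 24059 gene symbols in the count files, and *Vamp7* was not analysed here. *Stx4* was listed under its synonym *Stx4a*. All 9 passed the filter on low counts that 14934 genes passed.

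BMMCs were grown from the bone marrow of young adult C57BL/6 mice in IL-3 for at least 4 wk. They were then electroporated with Cas9 ribonucleoproteins (RNPs, the Cas9 protein loaded with guide RNA) and sampled after 1 wk without stimulation. One group, Scrambled RNP (labelled *Zc3h12a* WT), received a guide with no target in the mouse genome, and the other, *Zc3h12a* RNP (labelled *Zc3h12a* KO), received 3 guides against *Zc3h12a*, the gene of the endoribonuclease Regnase-1. Each group had 4 samples, numbered as replicates 1 to 4. The series names 4 mice as the source of the cells but does not say which samples share a mouse, and samples of the same number were analysed as a pair. The cells were edited populations and not clones, so that a sample can hold cells whose *Zc3h12a* was not disrupted. Both groups went through electroporation, and no group was left untreated.

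The guides are shown because they are the only designed difference between the groups. Each line gives the bases that the guide shares with the genome in lower case and the adjoining PAM, which Cas9 needs to cut, in capitals as read from GRCm39, 5′ to 3′. Guide 1 lies on chromosome 4 from 125014763 to 125014782, in coding exon 3 of 5 of *Zc3h12a*. Guides 2 (125020411 to 125020430) and 3 (125020811 to 125020830) lie in coding exon 1, and all of them match the plus strand, opposite to the gene. The scrambled guide has 0 perfect matches in the genome and hence no PAM to show.
Zc3h12a crRNA 1: caccactccgtcggattcgaAGG
Zc3h12a crRNA 2: ttgcttccgtcgatgaccacAGG
Zc3h12a crRNA 3: ggacaggcttcgttccacaaGGG
Scrambled crRNA: ggttcttgactaccgtaatt

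Mast cells store histamine, proteases and other mediators in secretory granules and release them by fusing the granules with the plasma membrane. Rab27 GTPases on the granule recruit effectors that bring it to the membrane, and Munc13-4 (*Unc13d*), a Rab27 effector, tethers and primes it there. Fusion is driven by SNARE proteins. An R-SNARE of the granule (VAMP2, VAMP7 or VAMP8) zips up with Q-SNAREs (SNAP23 with syntaxin 3 or syntaxin 4). Munc18-2 (*Stxbp2*), of the Sec1/Munc18 (SM) proteins, binds the syntaxin and guides the assembly. Loss of RAB27A, UNC13D or STXBP2 in people impairs the release of lytic granules and causes hemophagocytic lymphohistiocytosis.

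The samples held 19610240 to 33986762 counts each. BMMCs had transcripts of mast cells: *Cpa3*, the mast cell carboxypeptidase, was at 26728 to 34240 CPM (counts scaled to normalized library sizes), and *Kit*, the receptor of stem cell factor, at 2432 to 3926 CPM. Not every gene of the mast cell list was high. *Mcpt4* was at only 2.24 to 7.94 CPM, and *Tpsab1* had 0 to 3 counts per sample. Some defining genes of other lineages were at or near 0, with 0 to 3 counts of *Csf1r* (macrophages), 0 to 1 of *Ly6g* (neutrophils) and 0 of *Cd8a* (T cells) per sample. Others were detected at low levels, with 78 to 224 counts of *Lyz2* (macrophages), 12 to 132 of *Siglecf* (eosinophils) and 13 to 119 of *Cd3e* (T cells). *Itga2b*, which is also a megakaryocyte gene, was at 1261 to 2026 CPM, and *Cd200r3*, from the basophil list, at 439 to 535 CPM. The targeted transcript *Zc3h12a* was at 34.8 ± 6.65 CPM in Scrambled RNP and 33.2 ± 5.91 in *Zc3h12a* RNP samples (SD, n = 4), higher in 2 pairs and lower in 2. This level gave no check of the labels, since the guides cut the gene and need not alter the amount of its mRNA.

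All 9 genes were well expressed in resting BMMCs. Per kilobase of exon, the scale on which genes can be compared, their mean levels over the 8 samples ran from 7.45 (*Rab27a*) to 48.8 (*Vamp8*) CPM per kb. The median of the 14327 tested genes with a known length was 2.55 CPM per kb, and the 9 genes lay between the 72.2 and the 95.7 percentile of them.

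**Figure D1:**
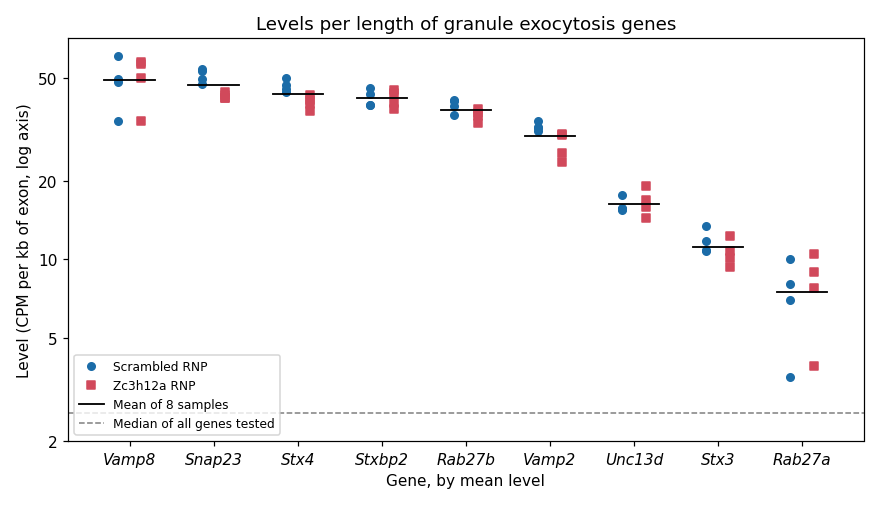
Levels in CPM per kb of exon (log axis) of the 9 genes, ordered by their mean over 8 samples (bars), with circles for Scrambled RNP and squares for *Zc3h12a* RNP samples. The dashed line is the median of all tested genes, 2.55 CPM per kb, and every sample of every gene lies above it.

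The highest 5 genes were close to one another. *Vamp8*, the granule R-SNARE, was at 48.8 ± 10.04 CPM per kb (SD, n = 8) and *Snap23*, the Q-SNARE that supplies a pair of helices to the SNARE bundle, at 46.8 ± 4.91. These did not differ beyond their spread, since *Vamp8* was the higher in only 4 of 8 samples. *Stx4*, a plasma membrane syntaxin, followed at 43.4 ± 4.08 CPM per kb and *Stxbp2* at 41.7 ± 2.93, and these too could not be ordered (4 of 8 samples each way). *Rab27b* was at 37.5 ± 2.60 CPM per kb. *Snap23* was above *Stx4*, and *Stxbp2* above *Rab27b*, in 8 of 8 samples each.

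A step down, *Vamp2*, an R-SNARE also known from synaptic vesicles, was at 30.0 ± 3.53 CPM per kb, below *Rab27b* in 8 of 8 samples. *Unc13d* came next at 16.4 ± 1.49 CPM per kb, with no overlap with *Vamp2* or with the gene that followed. *Stx3*, the other syntaxin of the set, was at 11.2 ± 1.27 CPM per kb. *Rab27a* was last at 7.45 ± 2.60 and lay below *Stx3* in 7 of 8 samples, but the mean log2 difference of 0.67 was within its SD of 0.72. With the longest transcript in place of all exons as the length, the order was the same.

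Within the paralog pairs, the members were unequal. *Rab27b* exceeded *Rab27a* in every sample, from 3.38 to 11.6 times per kb. The ratio was at its highest in replicate 2, where *Rab27a* was at its lowest in both groups. *Stx3* was at 0.219 to 0.329 of the level of *Stx4* per kb in the 8 samples. *Vamp8* exceeded *Vamp2* in every sample, from 1.09 to 2.43 times per kb.

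A few relatives of these genes, chosen after their values were seen, are given for comparison, and they do not stand for their families as a whole. *Snap25*, the neuronal counterpart of *Snap23*, was at 0.305 CPM per kb and *Snap29* at 17.6. *Stxbp3*, another Munc18 gene, was at 1.10 CPM per kb against 41.7 for *Stxbp2*. Among Munc13 genes, *Unc13b* was at 2.84 CPM per kb, and *Unc13a* and *Unc13c* were at 0.130 each. *Vamp3*, the R-SNARE of recycling endosomes, was at 14.4 CPM per kb. *Stx11*, a syntaxin of lytic granule release in lymphocytes, was at 3.51 CPM per kb.

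The question of the comparison was whether disruption of *Zc3h12a* alters this machinery in resting BMMCs. Tested by edgeR's quasi-likelihood method in a model that blocked on replicate number, no member was called at a log2 fold change above 0.5 or below -0.5 together with a Benjamini-Hochberg adjusted p of at most 0.05 over all genes tested. Neither was any other gene, so the share of all genes called was 0%. The study set the same fold change with a P of at most 0.05 and named no adjustment. It combined DESeq2, edgeR and limma after a batch correction, so the numbers given here are not the outcome of its procedure. With the unadjusted p, 0 members passed, since no member's log2 fold change was beyond 0.5, and 130 of all genes did (0.87%). DESeq2 and limma-trend with the same block called 0 members too, and 58 and 1 of all genes. At an unadjusted p at or under 0.05 there were 3 members, *Snap23*, *Vamp2* and *Stx4*, and all were lower after *Zc3h12a* RNP. That is 33.3% of the 9, against 6.17% of all 14934 genes (922 genes) and 10% of the 5007 genes with a mean level at or above that of *Rab27a*, the lowest member.

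**Figure D2:**
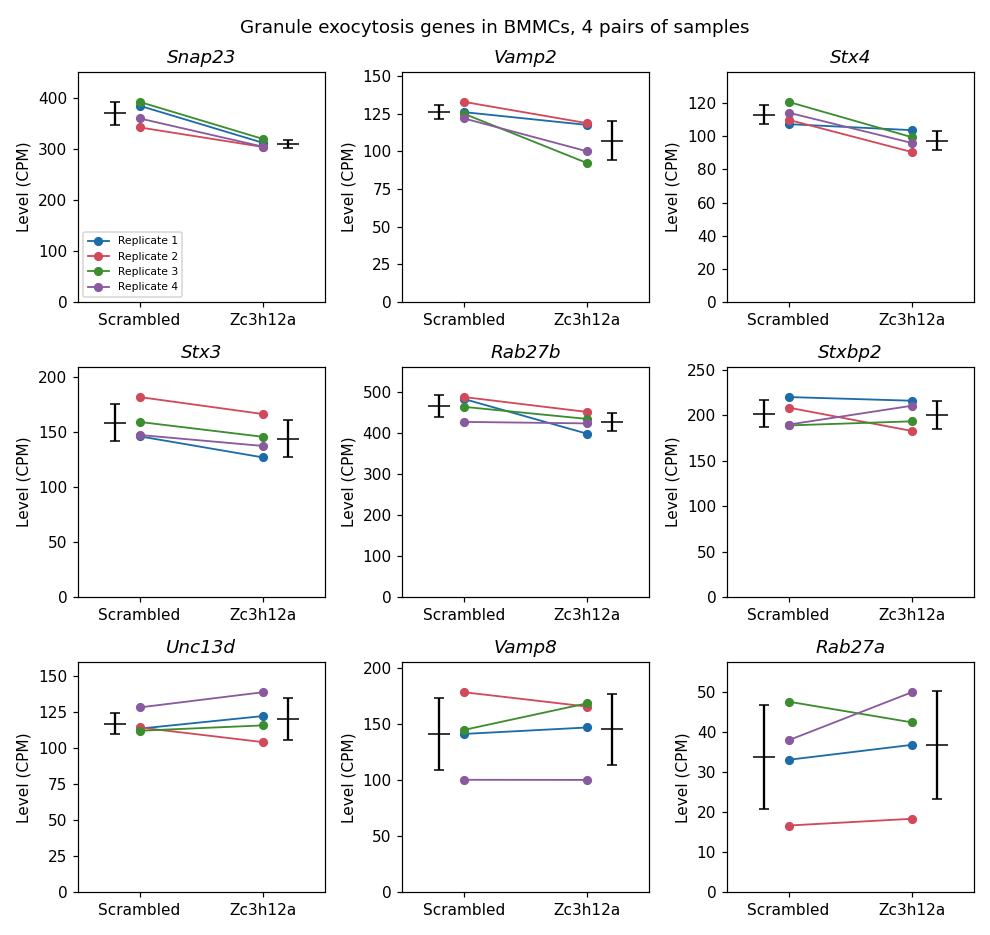
Levels in CPM (vertical axes from 0) of the 9 genes in Scrambled and *Zc3h12a* RNP samples, with a line joining the samples of a replicate and the mean ± SD of the 4 samples in black. All 4 lines slope down for *Snap23*, *Vamp2*, *Stx4*, *Stx3* and *Rab27b*, and the groups do not overlap for *Snap23*, *Vamp2* and *Stx4*.

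The Q-SNAREs of the set, *Snap23*, *Stx4* and *Stx3*, were lower in every pair. *Snap23* was at 385, 343, 393 and 360 CPM in Scrambled RNP replicates 1 to 4 and at 312, 304, 320 and 305 CPM in *Zc3h12a* RNP replicates 1 to 4. Each *Zc3h12a* RNP sample was below every Scrambled RNP sample. The log2 fold change was -0.25 with a standard error of 0.075 (95% interval -0.43 to -0.077, unadjusted p = 0.0110, adjusted p = 0.645 by edgeR's quasi-likelihood test), a difference of -16.05%.

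*Stx4* was at 107.3, 109.9, 121 and 114 CPM in Scrambled RNP samples and at 104, 90.5, 99.4 and 96.0 CPM in *Zc3h12a* RNP samples. The groups did not overlap, although replicate 1 alone moved by only -0.050 on the log2 scale. Its log2 fold change was -0.22 (standard error 0.079, unadjusted p = 0.0284, adjusted p = 0.718, same test). *Stx3* was at 146, 182, 159 and 147 CPM in Scrambled RNP samples and at 127, 166, 145 and 137 in *Zc3h12a* RNP samples. Replicate 2 was the highest in both groups, and the groups overlapped. The log2 fold change of *Stx3* was -0.14 (standard error 0.073, unadjusted p = 0.0948, adjusted p = 0.906).

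The R-SNAREs had log2 fold changes of opposite sign. *Vamp2* was at 126, 133, 125 and 122 CPM in Scrambled RNP samples and at 117, 119, 92.1 and 99.9 CPM in *Zc3h12a* RNP samples. The groups did not overlap, and replicates 3 and 4 had the larger differences. Its log2 fold change was -0.25 (standard error 0.086, unadjusted p = 0.0221, adjusted p = 0.686, edgeR's quasi-likelihood test). *Vamp8* was at 141, 179, 145 and 100.5 CPM in Scrambled RNP samples and at 147, 166, 169 and 100.3 CPM in *Zc3h12a* RNP samples. Replicate 4 was the lowest in both groups, and the spread between replicates, a CV of 22.6% in Scrambled RNP, was larger than this shift. Its log2 fold change was 0.042 with a 95% interval of -0.15 to 0.24, higher in 2 pairs and lower in 2.

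The transcripts of the 2 proteins that ready the SNAREs had log2 fold changes close to 0. *Stxbp2* was at 220, 209, 189 and 190 CPM in Scrambled RNP samples and at 216, 183, 193 and 211 in *Zc3h12a* RNP samples. The groups overlapped throughout, and the log2 fold change of -0.0082 (95% interval -0.21 to 0.19) turned positive with upper-quartile scaling (0.0032) and with library size alone (0.060). *Unc13d* was at 113, 114, 112 and 128 CPM in Scrambled RNP samples and at 122, 104, 116 and 139 in *Zc3h12a* RNP samples. Replicate 4 was the highest in both groups. Its log2 fold change was 0.034 (95% interval -0.15 to 0.22), higher in 3 pairs and lower in 1. These intervals leave out changes beyond the study's threshold of 0.5, but not smaller ones.

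Both Rab27 genes had adjusted p = 0.960, with opposite signs. *Rab27b* was at 484, 489, 465 and 428 CPM in Scrambled RNP samples and at 399, 452, 435 and 424 CPM in *Zc3h12a* RNP samples. It was lower in every pair, by 0.28 on the log2 scale in replicate 1 and by only 0.013 in replicate 4. The log2 fold change was -0.12 (standard error 0.081, unadjusted p = 0.165, edgeR's quasi-likelihood test). *Rab27a* was at 33.1, 16.7, 47.6 and 38.0 CPM in Scrambled RNP samples and at 36.8, 18.4, 42.4 and 49.96 CPM in *Zc3h12a* RNP samples. Replicate 2 was far below the others in both groups, and the level ranged 2.85-fold among Scrambled RNP samples. Its log2 fold change was 0.13 (standard error 0.10), higher in 3 pairs and lower in replicate 3.

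**Figure D3:**
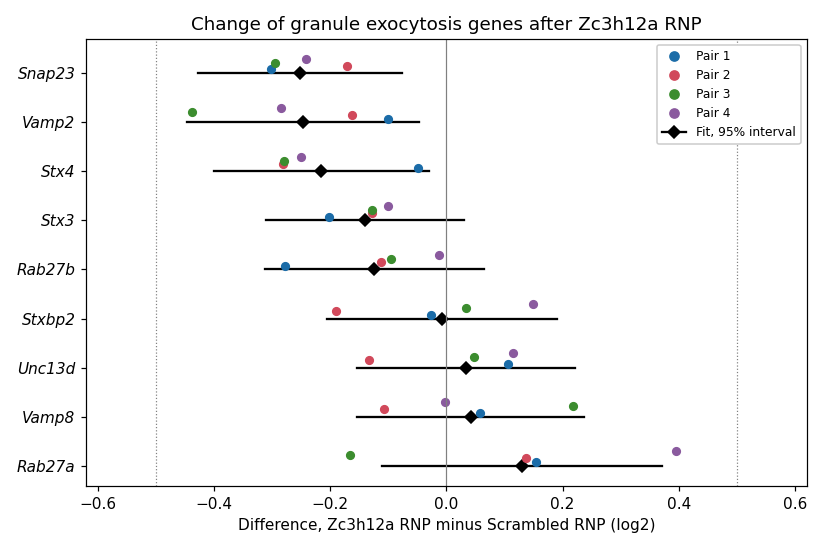
Log2 differences between *Zc3h12a* and Scrambled RNP samples for the 9 genes, with colored points for pairs 1 to 4, black diamonds for the fitted log2 fold change and black lines for its 95% interval. The dotted lines are the thresholds of -0.5 and 0.5, no fitted value reaches them, and the intervals of *Snap23*, *Vamp2* and *Stx4* end below 0.

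Counted over the set, 5 of the 9 members were lower in all 4 pairs and 0 were higher in all 4. Among all genes tested, 8.54% were lower in all 4 pairs and 4.98% higher, and among the 5007 genes at or above the level of *Rab27a* these shares were 13.8% and 4.51%. The groups did not overlap for 3 members, all lower, against 0.663% of all genes and 1.32% of the genes at or above that level. The median log2 fold change of the 9 was -0.12, and that of all genes tested 0.038. The members were picked with results of these data known, so these shares describe the 9 and test nothing.

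The 3 unadjusted p-values did not all hold without the pairing or with any replicate left out. Without the replicate block, 0 members had an unadjusted p at or under 0.05. There were 0 without replicate 1 and without replicate 2, and 1 (*Snap23*) without replicate 3 or without replicate 4. Whichever replicate was left out, the standard errors rose: from 0.075 to 0.10 or more for *Snap23*, from 0.086 to 0.11 or more for *Vamp2*. For *Stx4* the rise was from 0.079 to 0.10 or more. The log2 fold changes then ran from -0.29 to -0.19 for *Snap23*, -0.25 to -0.21 for *Vamp2* and -0.25 to -0.13 for *Stx4*. The log2 fold changes of *Snap23*, *Vamp2*, *Stx4*, *Stx3* and *Rab27b* were negative in all 12 alternative analyses.

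Counting error was below the spread between samples. The lowest count of a member in a sample was 424, for *Rab27a*, a counting error of 4.86%, and 2088 or more for each of the others, at most 2.19%. It was not negligible for *Vamp2*, at up to 2.11% against a CV of 3.66% in Scrambled RNP, or for *Snap23*, at up to 1.19% against a CV of 2.39% in *Zc3h12a* RNP. Transcripts of genes on the opposite strand share exon bases with some members, and the strand setting of the counting is not given in the sources used here. *Lrrc57* shares 30% of the exon bases of *Snap23* and had 680 to 1078 counts per sample against 7020 to 12146 for *Snap23*; its log2 fold change was -0.036. *Mrpl16* likewise shares 10.2% of the exon bases of *Stx3* (log2 fold change 0.16).

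Most mast cell markers also had negative values, and none was called. The summed level of the 13 mast cell genes ran from 56313 to 65923 CPM after Scrambled RNP. After *Zc3h12a* RNP it ran from 53456 to 56933 CPM, and the ranges overlap. Of the 12 tested, 11 had a negative log2 fold change, against 42.2% of all genes tested. An unadjusted p at or under 0.05 was reached by *Tpsb2* (-0.28), *Hdc*, the histamine-forming enzyme (-0.75), and *Srgn*, the granule proteoglycan core (-0.23), with adjusted p of 0.554 or more in edgeR's quasi-likelihood test. These were 3 of the 12 tested, against 6.17% of all genes tested. *Kit* was at -0.058 and *Fcer1a*, the IgE receptor's ligand-binding chain, at -0.019. The part of these mast cell genes in the values of the SNARE genes was not tested, and in bulk RNA fewer cells of a type and less RNA per cell cannot be told apart.

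Ratios within a sample cancel the scaling of the libraries. The log2 ratio of *Vamp8* to *Vamp2* was higher after *Zc3h12a* RNP in 4 of 4 pairs, by 0.16, 0.055, 0.66 and 0.28 in pairs 1 to 4. The mean difference was 0.29 ± 0.26 (SD, n = 4 pairs), and 2 of the 16 sign assignments of an exact two-sided sign-flip permutation test gave as large a difference, the least that 4 pairs can give. This ratio was added after the data were seen. The log2 ratio of *Rab27b* to *Rab27a* differed by -0.25 ± 0.23, lower in 3 pairs (exact p = 0.25), and that of *Stx3* to *Stx4* by 0.076 ± 0.15, higher in 3 pairs (exact p = 0.5). With 4 pairs this exact test cannot reach 0.05 for any of the 3 ratios, with or without adjustment. It therefore cannot decide whether a ratio differs between the groups.

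Genes around this core were taken from 7 lists of 113 genes, of which 112 were analysed and 103 passed the low-count filter. None was called, and 4 had an unadjusted p at or under 0.05, which is 3.88% against 6.17% of all genes. Of these, 3 were lower, namely *Rab4a*, *Vamp4* and *Ap3s1*, and *Nbeal2* was higher. The median log2 fold change of the 103 was -0.020, and 54.4% of them had a negative value, against 42.2% of all genes tested. In all 4 pairs, 13 were lower (12.6%, against 8.54% of all genes) and 5 higher (4.85%, against 4.98%).

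**Figure D4:**
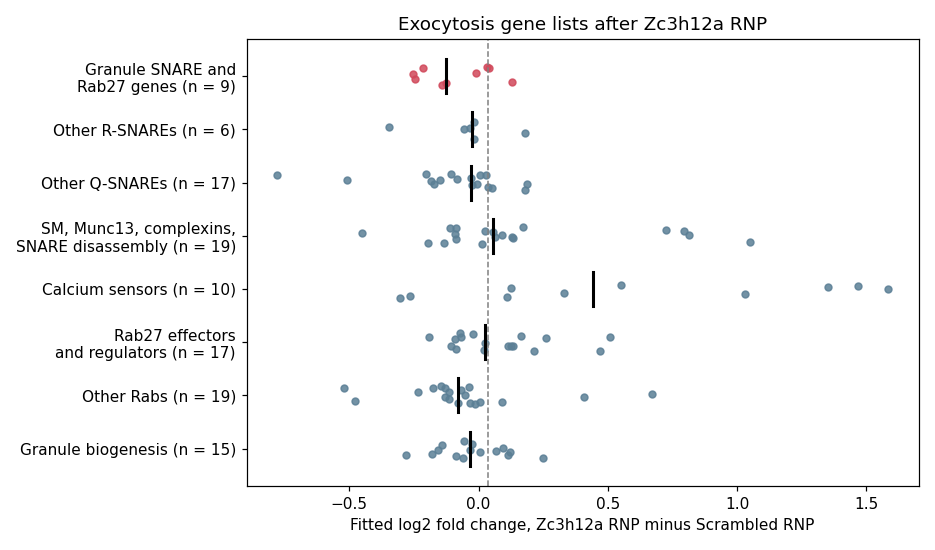
Fitted log2 fold changes (horizontal axis) of the 9 members, in red, and of the tested genes of 7 wider exocytosis lists, 1 point per gene, with black bars for the list medians and a dashed line for the median of all genes tested (0.038). The medians lie between -0.12 and 0.058 except that of the calcium sensors at 0.44, whose points at the right are genes of low counts.

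Among the SNARE lists, 5 of 6 tested R-SNAREs and 11 of 17 Q-SNAREs had a negative value, against 42.2% of all genes. *Vamp4*, an R-SNARE of the trans-Golgi network, was at 15.2 ± 2.93 CPM in Scrambled and 11.8 ± 0.968 in *Zc3h12a* RNP samples (log2 fold change -0.35, unadjusted p = 0.0253, adjusted p = 0.700 by edgeR's quasi-likelihood test), lower in 3 of 4 pairs. *Stx1a*, a neuronal syntaxin, had the largest negative value of genes with the same sign in all pairs, -0.78, at only 8 to 30 counts per sample. Of 19 SM, Munc13, complexin and SNARE disassembly genes, 12 were positive and 7 negative, with a median of 0.058. *Unc13b*, the other Munc13 of appreciable level, was at -0.20 and lower in all 4 pairs (unadjusted p = 0.0509), a gene named after its values were seen.

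Calcium sensors gave a median of 0.44 over 10 tested genes, the farthest of the lists from 0, and 0 of them had an unadjusted p at or under 0.05. Their medians in pairs 1 to 4 were 0.51, 2.16, 0.20 and -0.44, the highest in pair 2 and negative in pair 4. Most were barely expressed: *Syt12*, with the largest value of the genes higher in every pair (1.35, standard error 0.83), had 1 to 21 counts per sample. *Doc2b* was at 0 in every sample. The best expressed synaptotagmin per kb, *Syt9*, was at 17.2 ± 6.49 and 17.99 ± 3.17 CPM.

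Effectors and regulators of Rab27 had values on both sides of 0, 10 positive and 7 negative of 17. *Sytl3*, a synaptotagmin-like Rab27 effector, was at 26.6 CPM per kb, between *Rab27a* and *Rab27b*. It was lower in all 4 pairs, with a log2 fold change of -0.089 (unadjusted p = 0.271, edgeR's quasi-likelihood test). *Myo5a*, the granule motor, was higher in all 4 pairs (0.13, unadjusted p = 0.161). *Chml*, the Rab escort protein 2 gene, was at 11.0 ± 0.696 and 12.8 ± 0.962 CPM (0.22, unadjusted p = 0.0735), also higher in all 4 pairs.

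The other Rabs held the 5 highest levels of the wider lists: *Rab44* at 173 CPM per kb, *Rab37* at 74.8, *Rab8b* at 70.9, *Rab38* at 61.9 and *Rab7* at 57.5. All were above *Vamp8*, the highest member. Their log2 fold changes were between -0.13 and -0.051, and 15 of the 19 Rabs were negative (78.9%, against 42.2% of all genes). *Rab4a*, a GTPase of recycling endosomes, was at 24.4 ± 7.39 CPM in Scrambled and 17.97 ± 7.44 in *Zc3h12a* RNP samples. Its log2 fold change was -0.48 (standard error 0.11, unadjusted p = 0.00234, adjusted p = 0.435 by edgeR's quasi-likelihood test), and it was lower in all 4 pairs, by 0.25 to 0.73.

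In granule biogenesis, *Ap3s1*, a subunit of the AP-3 adaptor of lysosome-related organelles, went from 71.0 ± 5.76 to 58.7 ± 7.17 CPM (log2 fold change -0.28, unadjusted p = 0.0115, adjusted p = 0.645), lower in all 4 pairs with no overlap. The other AP-3 subunits did not share its size, with *Ap3b1* at -0.025, *Ap3d1* at -0.060 and *Ap3m1* at 0.12. *Nbeal2*, a BEACH-domain protein needed for platelet alpha-granules, was at 174 ± 37.1 and 211 ± 65.2 CPM (0.25, unadjusted p = 0.0220, adjusted p = 0.686), higher in all 4 pairs. *Dtnbp1*, the BLOC-1 subunit dysbindin, was lower in all 4 pairs at -0.18 (unadjusted p = 0.0531, edgeR's quasi-likelihood test, named after its values were seen).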

How the data were processed

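Poly(A) RNA of 8 BMMC samples was sequenced. The authors checked reads with FastQC 0.11.9, aligned them to GRCm39 with HISAT2 2.2.1 and deposited raw counts per gene symbol from featureCounts 2.0.1. The batch correction named in their methods was not applied to the deposited counts, which are whole. From these counts, edgeR 4.0.16 in R 4.3.3 was run with TMM scaling, filterByExpr by group and a model of replicate number and RNP, with Benjamini-Hochberg adjustment over all genes tested. Standard errors were obtained from each log2 fold change and its F statistic, and pair differences used log2 CPM with a prior count of 2. Exon lengths, positions and overlaps came from GENCODE release 39 on GRCm39, and guide sequences from the study's materials list. Alternatives were no block, DESeq2 1.42.0, limma-trend (limma 3.58.1), other scalings and filters, and each replicate left out. Figures used matplotlib 3.10.9.

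The labels do not say that a replicate number marks a mouse. Within a replicate number, the 2 samples deviated from their groups with correlations of 0.595, 0.075, 0.624 and 0.041 over all tested genes (samples of different numbers up to 0.398), and at 0.717 to 0.756 over the 9668 genes with a mean log2 CPM above 2 (up to 0.137). The labels do not say either that samples are separate cultures, while the paper describes the replicates as biological and independent. In the model with the replicate block, p-values measure the spread left after differences between replicate numbers are taken out. They do not measure the whole spread between samples of a group. Samples of a group differed by more than counting noise, with a chi-square of at least 58.2 per degree of freedom.

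The 10 genes, the wider lists and the cell type markers were chosen with earlier results of these data known. Named over all the wider lists were the 3 largest positive and 3 largest negative values with 1 sign in all 4 pairs. The 5 highest levels per kb and any gene with an adjusted p at or under 0.05 (none) were also named. So were the 4 with an unadjusted p at or under 0.05. All other named genes of these lists fell under none of these rules and were chosen with their values known. Among them are *Sytl3*, *Myo5a*, *Syt9*, *Doc2b* and the AP-3 subunits other than *Ap3s1*. *Stx10* and 7 of the marker genes were not analysed here, and the values of some genes are not reported here. The summed marker levels per sample were 445 to 541 CPM for basophil genes, of which *Cd200r3* held 439 CPM or more, 10.1 to 13.6 for macrophage genes, up to 0.333 for neutrophil genes, 2.04 to 6.09 for eosinophil genes, 1263 to 2026 for megakaryocyte genes, up to 0.693 for B cell genes, 0.533 to 5.85 for T and NK cell genes and 1.26 to 3.93 for erythroid genes.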

Additional observations from a re-analysis of the deposited data

Results flagged for a closer look

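Of 30 sets of 4 samples examined, 3 held a sample that stood apart by Dixon's test, where chance alone gives about 1 in 20 (1.5 sets). *Unc13d* was at 128 CPM in Scrambled RNP replicate 4 and at 112 to 114 in the other Scrambled RNP samples, a gap of 0.860 of the group's range (critical value 0.829). *Zc3h12a* was at 24.9 CPM in Scrambled RNP replicate 1 and at 37.1 to 39.3 in the others, a gap of 0.846 of the range. The 9 members together took 0.157% of the counts in Scrambled RNP replicate 2 and 0.171% to 0.174% in the other Scrambled RNP samples, a gap of 0.830 of the range.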

How the results depend on the processing

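No member was called in any of 12 alternatives, where the lowest adjusted p was 0.272 (*Snap23*, DESeq2). Signs turned for *Stxbp2* with upper-quartile scaling (0.0032), library size alone (0.060), no low-count filter (0.025) and without replicates 1 and 2 (leaving out a replicate gave -0.075 to 0.11), for *Vamp8* without replicate 3 (range without a replicate -0.070 to 0.15), for *Unc13d* without replicate 3 (range -0.024 to 0.15), and for *Zc3h12a* with library size alone (0.0046) and without replicate 4 (0.0062). With no replicate block, 0 members, 0 wider genes and 104 of all genes were at or under an unadjusted p of 0.05, and the block changed no call of a member. Members at that p numbered 1 with library size alone, 0 with no filter and 0 to 1 without a replicate. Wider genes at that p numbered 7 with limma-trend, 8 with library size alone, 2 with no filter, 7 with at least 10 counts in every sample and 1 to 5 without a replicate. Over all genes, the called numbered 58 with DESeq2, 1 with limma-trend, 1 with RLE size factors, 40 with no filter, 3 with at least 10 counts in every sample and 0 to 137 without a replicate (137 without replicate 2), and those with an unadjusted p at or under 0.05 numbered 605 with RLE size factors, 605 with no filter and 246 to 950 without a replicate. The members' median was -0.056 with library size alone, which put the median of all genes at 0.11, and -0.19 (without replicate 3) to -0.029 (without replicate 1) without a replicate. The cause of these shifts was not tested. Planned ratios with *Vamp7* were not run.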
